A study of Homo sapiens with 6 samples.

Results

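Inflammatory chemokines were examined as a set of 10 genes, CCL20, CCL2, CCL5, CXCL1, CXCL2, CXCL3, CXCL5, CXCL6, CXCL8 and CX3CL1, in the established human cell line 786-O, a renal clear cell carcinoma line. All 10 genes were measured, by 21 of the 44988 probe sets tested, and each probe set was read on its own. A probe set belonged to the set when the array's annotation gave it a single gene symbol and that symbol was a listed gene. The genes were selected on the difference between shPLEKHO1 and shNC intensity on these same arrays, CCL20 and CXCL8 being known to be higher, with other chemokines of the same kind added, so the differences of these 10 genes are a description and not an independent test. The cells carried, by lentivirus, either a negative control short hairpin RNA (shNC, 3 arrays) or one against PLEKHO1 (shPLEKHO1, 3 arrays); all were grown in RPMI medium with serum. Both groups had therefore been through lentiviral delivery of a hairpin, and cells without virus are not among the groups compared. The labels name neither the clones nor the hairpin sequence, and they do not say that replicates were separate cultures, so errors and p-values cover only how these arrays differ, which may be technical variation.

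Chemokines are small proteins that attract leukocytes by binding G protein-coupled receptors, and they are classed by the spacing of their first cysteines as CC, CXC and CX3C. CXC chemokines with the amino acids ELR ahead of the cysteines act on CXCR1 and CXCR2, draw neutrophils and promote the growth of blood vessels, and CXCL8 is a well-known secreted product of renal carcinoma cells. Their genes are textbook targets of NF-kB and AP-1, transcription factors that respond to cytokines and stress.

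Each array gave 1 intensity per probe set, on a linear scale, and median intensity lay between 55.7 and 57.1 on the 6 arrays. PLEKHO1 itself read 135, 143 and 126 with shNC and 110.3, 116 and 97.4 with shPLEKHO1, a fall of 19.9% (log2 difference of -0.32 ± 0.08 SE, limma adjusted p = 0.0124, n = 3 per group). All 6 renal carcinoma markers measured, PAX8 and PAX2 among them, read above the median probe set. EPAS1 (log2 difference of 0.54), KRT18 (0.52) and KRT8 (0.32) rose, PAX8 (-0.25) and PAX2 (-0.33) fell, and VIM (0.04) did not pass in limma. Summed renal markers ranged from 20017 to 20139 with shNC and from 22204 to 22642 with shPLEKHO1, and their part in the results below was not tested. Of the other lists, 6 of 7 leukocyte, 4 of 5 endothelial and 4 of 5 fibroblast markers read below that median in both groups, the leukocyte antigen PTPRC at 6.39 with shNC and 6.82 with shPLEKHO1. Summed leukocyte markers ranged from 198 to 207 with shNC and from 205 to 242 with shPLEKHO1, endothelial ones from 190.0 to 224 and from 189 to 204, and fibroblast ones from 156 to 169 and from 167 to 201. Only the matrix gene LUM, a fibroblast marker, was called among these 3 lists (limma adjusted p = 7.68e-05), from 25.7 to 45.8. Among the array's controls, 28S ribosomal RNA was read by 3 probe sets, with log2 differences (± SE) of 1.06 ± 0.05, 0.74 ± 0.08 and 0.09 ± 0.07 between shPLEKHO1 and shNC, and their part in the results below was not tested.

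Below, each log2 difference subtracts the shNC mean from the shPLEKHO1 mean of log2(intensity + 1) after quantile normalization and stands ± its SE (n = 3 per group), and folds come from these differences. "Rose" and "fell" mean an adjusted p under 0.05 in limma over all 44988 probe sets. A probe set is called dim where both group means were under 58.3, the median of all tested probe sets. On an array, levels of different probe sets cannot be set against each other, so only differences are compared between genes. In bulk RNA, fewer cells that make a transcript and less transcript per cell cannot be told apart.

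Of the 21 chemokine probe sets, 11 rose and 1 fell. Among all probe sets 17.3% rose and 15.7% fell, and 33.0% were called in either direction. Of the 15 chemokine probe sets that were not dim, 10 rose and 1 fell, beside 28.4% and 24.7% of all probe sets not dim. A probe set can count as not dim through its higher group alone, which favours probe sets that changed. This held for the CXCL3 probe set 11728477_at, with means of 43.2 with shNC and 86.4 with shPLEKHO1. Of the 11 that rose, 8 were at least 2-fold higher, a size reached by 0.642% of all probe sets and by 262 of the 23135 not dim. The median log2 difference was 0.79 over the 21 and 0.01 over all probe sets. The 3 shPLEKHO1 arrays lay entirely above the shNC arrays for 11 chemokine probe sets and entirely below for 5, against 23.0% and 20.0% of all probe sets and 43.0% in either direction. Those 11 were the probe sets of 6 genes, CCL20, CCL2, CXCL1, CXCL2, CXCL3 and CXCL8, and for each of these genes every probe set rose. The count of 11 was the same in all 14 alternatives tried for it.

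**Figure D1:**
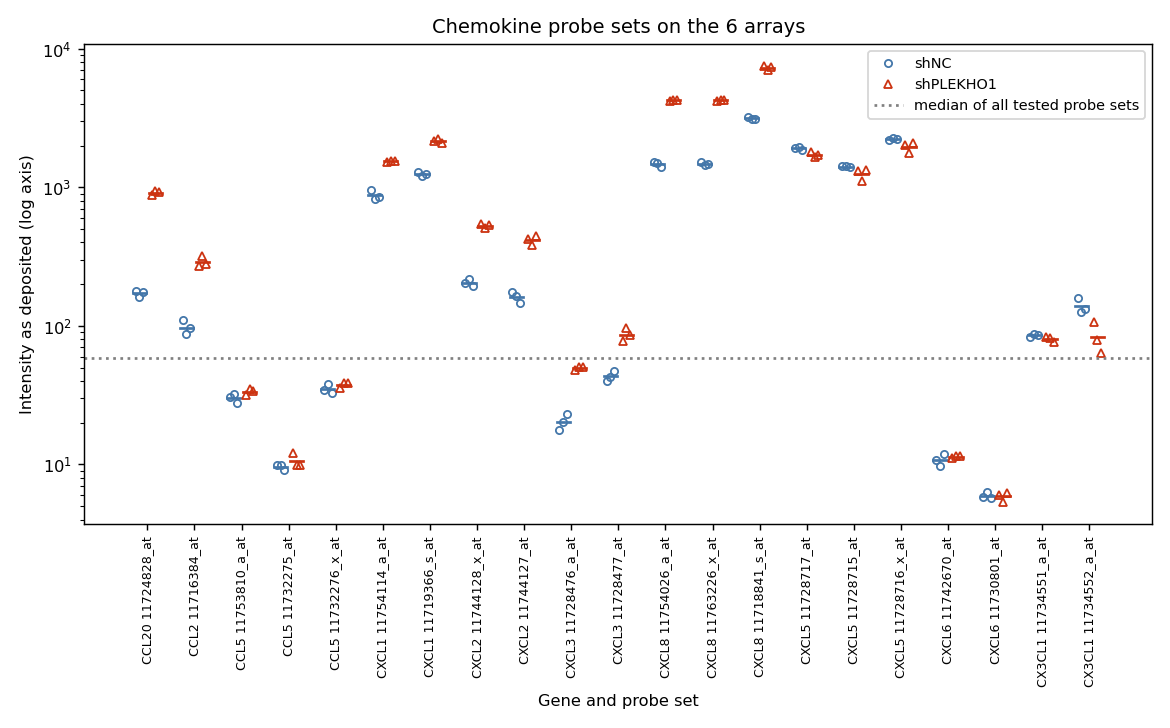
Intensity as deposited (log axis) of the 21 chemokine probe sets on the 3 shNC (circles) and 3 shPLEKHO1 (triangles) arrays, with short lines at group means and a dotted line at the median of all tested probe sets, 58.3. The groups separate upwards for CCL20, CCL2, CXCL1, CXCL2, CXCL3 and CXCL8, downwards for CXCL5 and CX3CL1, and overlap for CCL5 and CXCL6.

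The CC chemokines split. CCL20, which attracts lymphocytes and dendritic cells through CCR6, is read by 1 probe set. Its intensity was 178, 160.5 and 175 with shNC and 877, 945 and 919 with shPLEKHO1. Every shPLEKHO1 array was thus far above every shNC array. CCL20 was 5.32-fold higher (2.41 ± 0.05, 95% confidence interval 2.29 to 2.53), rank 3 among rises of all probe sets. CCL2, the monocyte attractant that binds CCR2, is also read by 1 probe set, at 109, 86.7 and 95.8 with shNC. With shPLEKHO1 it was at 271, 320.1 and 278, again with no overlap. CCL2 was 2.98-fold higher (1.57 ± 0.09, interval 1.37 to 1.78), rank 31 among rises.

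CCL5, which attracts T cells and monocytes, did not separate the groups on any of its 3 probe sets. Its brightest read 34.5, 38.1 and 32.5 with shNC and 35.7, 38.7 and 38.8 with shPLEKHO1, so the groups overlapped. The differences of the 3 probe sets were 0.10 ± 0.07, 0.13 ± 0.07 and 0.11 ± 0.07, and each 95% interval included 0, with a highest upper bound of 0.30. With 1 array left out, the differences ranged from 0.04 to 0.15, from 0.07 to 0.18 and from 0.04 to 0.14. All 3 probe sets were dim.

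Among ELR-type CXC chemokines, 9 of 14 probe sets rose. CXCL8, or interleukin 8, is the classical neutrophil attractant and has 3 probe sets. The probe set 11718841_s_at read 3199, 3103 and 3126 with shNC and 7532, 7013 and 7408 with shPLEKHO1. The lowest shPLEKHO1 array was more than double the highest shNC array. This probe set was 2.34-fold higher (1.23 ± 0.05, interval 1.11 to 1.35). A second one, 11754026_a_at, went from 1533, 1503 and 1405 to 4221, 4246 and 4284, which is 2.86-fold (1.51 ± 0.05, interval 1.40 to 1.63). The third, 11763226_x_at, went from 1534, 1454 and 1466 to 4190.3, 4277 and 4259, which is 2.85-fold (1.51 ± 0.05). So the size of the CXCL8 difference depended on the probe set while its direction did not.

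CXCL1, CXCL2 and CXCL3, once called GRO alpha, beta and gamma, are closely related neutrophil attractants. CXCL1 intensity on the probe set 11719366_s_at was 1295, 1200 and 1237 with shNC and 2151, 2228 and 2079.8 with shPLEKHO1. Its groups were clearly apart, with a 1.73-fold higher level (0.79 ± 0.05), and its other probe set gave nearly the same difference (0.80 ± 0.06). CXCL2 on the probe set 11744128_x_at was 203, 219 and 194 with shNC and 539, 512 and 533 with shPLEKHO1. It was 2.58-fold higher (1.37 ± 0.07), and the second CXCL2 probe set was at 1.37 ± 0.09. CXCL3 on its brighter probe set was 40.3, 42.4 and 47.0 with shNC and 77.1, 96.0 and 86.1 with shPLEKHO1, 1.97-fold higher (0.98 ± 0.09). Its dimmer probe set went from a mean of 20.4 ± 2.73 to 49.7 ± 1.46 (SD, n = 3), 2.39-fold higher (1.26 ± 0.09). The messages of these 3 genes are alike in sequence, and probe sets with the suffixes _s_at and _x_at can read more than one transcript, so how the signal divides among them is uncertain.

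**Figure D2:**
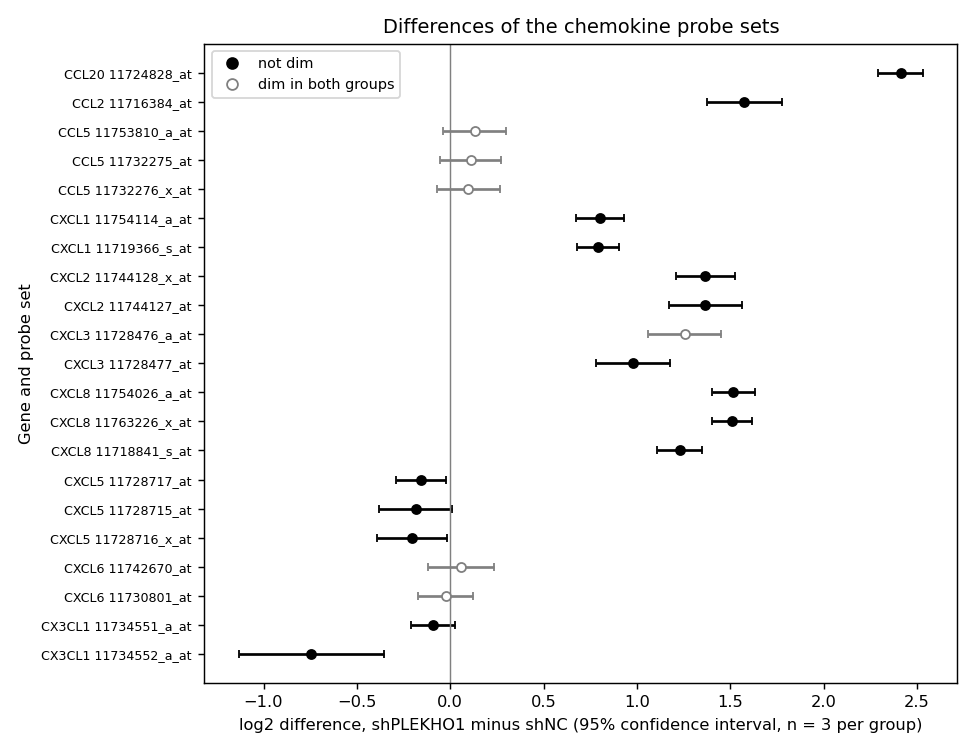
Log2 difference (shPLEKHO1 minus shNC) of each chemokine probe set with its 95% confidence interval from limma, n = 3 arrays per group, filled where the probe set was not dim and open where it was dim in both groups. CCL20 is at 2.41, the 9 probe sets of CXCL1, CXCL2, CXCL3 and CXCL8 lie between 0.79 and 1.51, and the 3 of CXCL5 lie slightly below 0.

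The other ELR-type members did not rise. CXCL5, a neutrophil attractant made by epithelial cells, read 2197, 2278 and 2248 with shNC and 2026, 1755 and 2073 with shPLEKHO1 on its brightest probe set. All its shPLEKHO1 arrays were below all its shNC arrays, on each of its 3 probe sets. The differences were -0.21 ± 0.08, -0.16 ± 0.06 and -0.18 ± 0.08, with intervals of -0.39 to -0.02, -0.29 to -0.03 and -0.38 to 0.01. Without shPLEKHO1 replicate 2 they were -0.12, -0.12 and -0.09. They did not pass the threshold over all probe sets in limma, but with a variance trend and robust fitting all 3 did. CXCL6, the closest relative of CXCL5, read 10.8, 9.78 and 12.0 with shNC and 11.2, 11.6 and 11.4 with shPLEKHO1 on the brighter of 2 dim probe sets. Its groups overlapped, and the 2 differences were 0.06 ± 0.08 and -0.03 ± 0.06. Of 23 background control probe sets, which rise with GC content from a mean of 4.80 to 2063, the median read 7.82, so an intensity alone does not show that a transcript is present. Their own log2 differences ran from -0.01 to 0.19, with the upper end at high GC content, a range that includes the differences of all 3 CCL5 probe sets and of the brighter CXCL6 probe set, and their part in these was not tested.

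CX3CL1, or fractalkine, is made as a membrane-anchored protein that holds leukocytes to the cell and is released by the proteases ADAM10 and ADAM17. On the probe set 11734552_a_at it read 158, 126 and 133 with shNC and 107, 78.9 and 64.0 with shPLEKHO1. The groups did not overlap but spread more than for any other chemokine probe set of the 21, by the SE of the difference, and CX3CL1 was 1.67-fold lower there (-0.74 ± 0.17, interval -1.13 to -0.35). The other probe set read 83.4, 87.4 and 86.3 against 82.9, 81.6 and 77.0 and did not pass (-0.09 ± 0.05). CX3CL1 was the only one of the 10 genes with a probe set that fell, and its 2 probe sets differed from each other by more than either SE.

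The 6 ELR-type genes lie in 1 cluster on chromosome 4, while CCL20 is on chromosome 2, CCL2 and CCL5 are on chromosome 17 and CX3CL1 is on chromosome 16. In RefSeq's gene order (GRCh38.p14) the protein-coding genes of the cluster run CXCL8, CXCL6, PF4V1, CXCL1, PF4, PPBP, CXCL5, CXCL3 and CXCL2. Genes that rose were interspersed with genes that did not. CXCL6, next to CXCL8, was at 0.06 and -0.03 on its probe sets, and CXCL5, next to CXCL3, was between -0.21 and -0.16. Of the platelet chemokines in between, named here for their position with their values already seen, PPBP was at 0.03 ± 0.06 and the brighter PF4 probe set at -0.12 ± 0.13, all dim. PF4V1, a variant of PF4, fell slightly on the brighter of 2 dim probe sets (-0.18 ± 0.05, limma adjusted p = 0.0277), a call lost in 8 of 15 alternatives, whose adjusted p reached 0.109. It was lost on leaving out shNC replicate 2 (0.0719) or 3 (0.0901), or shPLEKHO1 replicate 2 (0.0735) or 3 (0.0886).

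**Figure D3:**
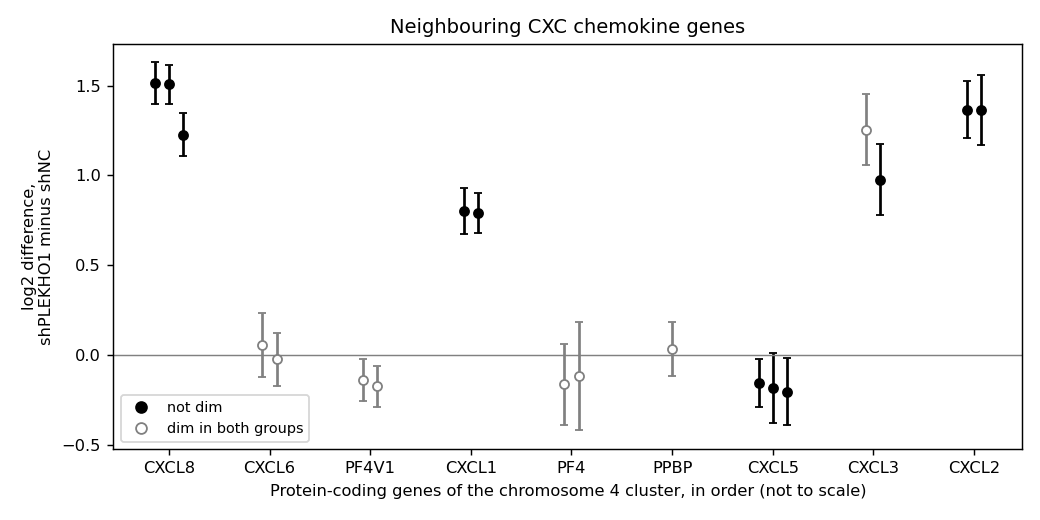
Log2 difference (shPLEKHO1 minus shNC, 95% confidence interval, n = 3 arrays per group) of every probe set of the 9 protein-coding genes of the chromosome 4 cluster, in gene order and not to scale, open where dim. CXCL8, CXCL1, CXCL3 and CXCL2 lie well above 0, and CXCL6, PF4V1, PF4, PPBP and CXCL5 between them lie near or below it.

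Promoters were compared because 4 genes of the cluster and CCL20 moved together while CXCL5 and CXCL6 did not. RefSeq's promoter table (GRCh38.p14) held 7 of the 10 genes, matched by symbol, and those of CCL2, CCL5 and CX3CL1 were not used here. The 150 bases before each start are printed 5′ to 3′ along the gene, with capitals at matches, on either strand, of GGNNTTTCC, a core shared by many NF-kB sites.
CCL20 (chr2:227813692-227813841, plus strand): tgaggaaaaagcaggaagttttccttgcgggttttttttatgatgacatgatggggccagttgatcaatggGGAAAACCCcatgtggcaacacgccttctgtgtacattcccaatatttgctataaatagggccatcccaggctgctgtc
CXCL8 (chr4:73740419-73740568, plus strand): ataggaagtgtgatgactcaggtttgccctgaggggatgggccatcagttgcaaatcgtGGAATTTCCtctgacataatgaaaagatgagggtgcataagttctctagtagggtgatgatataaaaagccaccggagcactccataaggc
CXCL1 (chr4:73869243-73869392, plus strand): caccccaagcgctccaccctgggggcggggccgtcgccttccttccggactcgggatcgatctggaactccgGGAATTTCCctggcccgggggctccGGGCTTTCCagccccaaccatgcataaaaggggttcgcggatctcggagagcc
CXCL2 (chr4:74099196-74099345, minus strand): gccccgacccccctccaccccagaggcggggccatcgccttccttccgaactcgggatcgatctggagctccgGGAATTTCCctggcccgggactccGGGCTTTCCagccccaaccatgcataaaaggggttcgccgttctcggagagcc
CXCL3 (chr4:74038690-74038839, minus strand): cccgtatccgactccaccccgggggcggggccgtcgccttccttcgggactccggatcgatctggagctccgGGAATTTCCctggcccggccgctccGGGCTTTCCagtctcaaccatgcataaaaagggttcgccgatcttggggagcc
CXCL5 (chr4:73998678-73998827, minus strand): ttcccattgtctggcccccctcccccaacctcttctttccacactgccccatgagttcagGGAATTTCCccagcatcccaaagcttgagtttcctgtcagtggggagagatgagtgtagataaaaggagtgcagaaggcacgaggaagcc
CXCL6 (chr4:73836528-73836677, plus strand): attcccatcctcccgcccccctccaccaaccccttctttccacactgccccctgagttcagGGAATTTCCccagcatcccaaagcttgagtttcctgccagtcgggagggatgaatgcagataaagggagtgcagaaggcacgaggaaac

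All 7 promoters held GGNNTTTCC in the 250 bases before the start, and so did 5.48% of 27305 RefSeq promoters of that length. In CCL20 the match was on the opposite strand and began 79 bases before the start. In CXCL1 and CXCL3 it began 78 bases before the start, in CXCL2 77, in CXCL8 91, in CXCL5 90 and in CXCL6 89. CXCL1, CXCL2 and CXCL3 each had a second match, GGGCTTTCC, 53 bases before the start, which was found in 0.560% of all promoters. GGGCTTTCC and the fuller sequence GGGAATTTCC were copied from the CXCL1 promoter, so their presence there was fixed in advance and is no test. The promoters of CXCL1 to CXCL3 are similar to each other, as are those of CXCL5 and CXCL6. Matches shared within either group, those of GGNNTTTCC included, are likewise no independent finding. GGGAATTTCC, which overlaps the first match, was in 5 of the 7, CXCL1, CXCL2, CXCL3, CXCL5 and CXCL6, and in 0.157% of all promoters. A general NF-kB consensus of the same length, which allows either purine or either pyrimidine at some positions and overlaps the first match, was in 6 of the 7, all but CXCL8, in 6.60% of all promoters and in 3 of 23 other measured chemokines, CCL1, CCL22 and CXCL10. CXCL5 and CXCL6 thus shared GGGAATTTCC, but not GGGCTTTCC, with CXCL1 to CXCL3. The messages of CXCL5 and CXCL6 did not rise, though both CXCL6 probe sets were dim. Any part of these letters in the differences was not tested. The AP-1-type motif TGANTCA (both strands) was found in CXCL8 alone among the 7, 137 bases before the start, in 6.60% of all promoters and in 5 of the 23 other chemokines, CCL7, CCL24, CCL27, CXCL11 and CXCL14. Of these 23 other measured chemokines with a promoter entry, 2 held GGNNTTTCC, CXCL10 and CXCL11. Aligned over 250 bases, the promoters of CXCL1, CXCL2 and CXCL3 were 68.0% to 81.4% identical and those of CXCL5 and CXCL6 85.3%, while the other 17 pairs were 40.5% to 51.5% identical. These matches are a description of the letters and do not show that a factor was bound.

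**Figure D4:**
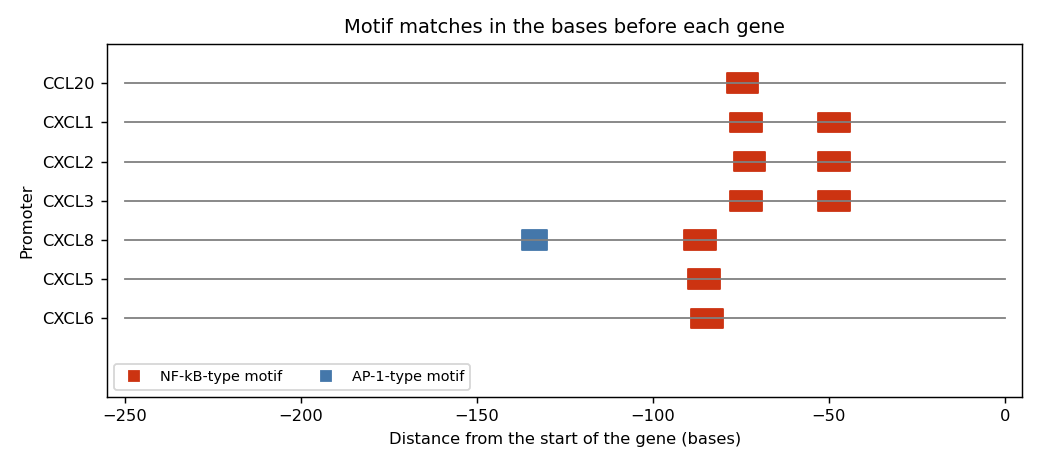
Distance in bases from the start of the gene of matches to the NF-kB-type motif (red) and the AP-1-type motif (blue) in 7 chemokine promoters over the 250 bases before the start. The first match lies 77 to 91 bases before the start in all 7, those of CXCL5 and CXCL6 included, and CXCL1, CXCL2 and CXCL3 have a second at 53.

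Other chemokines were mostly dim. From here on the brightest probe set of a gene, by its mean across the 6 arrays, stands for the gene, and by that reading 33.2% of 18132 genes were called, 17.6% higher and 15.6% lower. Of the 7759 dim genes, 8.58% were called. Of 30 other chemokines measured, 1 rose and 2 fell, 27 were dim, and the median difference was -0.03. CCL26, an eosinophil attractant, read 62.9, 52.6 and 54.4 with shNC and 44.1, 36.3 and 35.8 with shPLEKHO1. CCL26 was dim and 1.44-fold lower (-0.53 ± 0.10, limma adjusted p = 0.0031), with no overlap. CXCL10, an interferon-induced T cell attractant, was dim and slightly higher (0.21 ± 0.05, limma adjusted p = 0.0147). Its promoter also held the NF-kB core, as did that of CXCL11, which was dim and did not pass (-0.05 ± 0.06). Background controls differed by up to 0.19, at a mean of 426 with shNC. The controls nearest CXCL10 (11.3 with shNC), at 10.5 and 13.3 with shNC, differed by 0.02 and 0.05. The part of the background in the CXCL10 difference was not tested. The CXCL10 call was lost on leaving out shNC replicate 2 (adjusted p = 0.0520) or shPLEKHO1 replicate 1 (0.0541) and with a pseudocount of 16 (0.0549), and its lowest adjusted p was 0.00604. PF4V1 was the other one that fell. Without shNC replicate 2 a single one of the 30 was called, and with the mean of a gene's probe sets 6 were.

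Most chemokine receptors were dim. Of 21 measured, 18 were dim, 2 rose and the median difference was 0.03, and their count too stands beside the 8.58% of dim genes called. CXCR1, CXCR2, CCR6, CCR2 and CX3CR1, named as receptors of the genes above other than CCL5, with their values already seen, were dim. They did not pass in limma, adjusted (lowest adjusted p among those named = 0.577) or unadjusted. CCR1, which binds CCL5 and is named with its value already seen, was dim and did not pass (0.20 ± 0.11, limma adjusted p = 0.225). The decoy receptor ACKR3, which takes up CXCL11 and CXCL12, was at 47.1 with shNC and 57.7 with shPLEKHO1 (0.29 ± 0.08, limma adjusted p = 0.0248), and 3 of its 4 probe sets rose. CCRL2, a receptor-like protein that binds chemerin, was at 25.9 and 31.6 (0.27 ± 0.08, limma adjusted p = 0.0248). ACKR3 and CCRL2 were dim too. The ACKR3 call was lost on leaving out shNC replicate 2 (adjusted p = 0.0716) or 3 (0.0868) or shPLEKHO1 replicate 3 (0.0638), and with the replicate block (0.0555). The lowest adjusted p over its alternatives was 0.00172. The CCRL2 call was lost on leaving out shNC replicate 1 (adjusted p = 0.0743) or 2 (0.0768), or shPLEKHO1 replicate 1 (0.0593) or 3 (0.0815), and its lowest adjusted p was 0.00603.

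Genes linked to chemokine production were read from 5 lists, which hold inducing cytokines and their receptors, NF-kB components, other NF-kB-induced genes, RNA-binding proteins and chemokine-cleaving proteases. Of the 68 genes measured, 9 were dim, 21 rose (30.9%) and 11 fell (16.2%). Among all genes 17.6% rose and 15.6% fell. Among all probe sets that were not dim, 28.4% rose and 24.7% fell, and the list counts below stand beside these shares. Among 14 inducing cytokines and their receptors, 4 rose and 1 fell, with a median of 0.08. IL1R2, a decoy receptor for interleukin 1, read 204, 166 and 186 with shNC and 370.1, 403 and 388 with shPLEKHO1, 2.11-fold higher (1.07 ± 0.07, limma adjusted p = 1.25e-05). TNF, an inducer of most of the chemokines above, rose from a mean of 92.5 to 126 (0.44 ± 0.05, limma adjusted p = 0.000334), and its receptor TNFRSF1A fell (-0.42 ± 0.05, limma adjusted p = 0.000294, and -0.25 with the mean of its probe sets). The interleukin 1 genes themselves, IL1A and IL1B, were dim and did not pass (limma adjusted p = 0.624 and 0.161).

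Of 18 NF-kB subunits, inhibitors and activators, 4 rose and 1 fell, with a median of 0.13. The subunits RELA and NFKB1, named with their values already seen, were at -0.02 ± 0.05 and 0.05 ± 0.05. The kinase IRAK1 (0.56 ± 0.05) and the ubiquitin ligase TRAF6 (0.46 ± 0.06), which carry the interleukin 1 signal, rose, as did TNFAIP3, a feedback inhibitor of NF-kB (0.31 ± 0.05). The 1 that fell, named with its value already seen, was CHUK (-0.44 ± 0.10, limma adjusted p = 0.0112). In the list of 17 other NF-kB-induced genes 8 rose and 4 fell, and the median was 0.12. The cytokine IL6 read 405, 379.5 and 374 with shNC and 1239.5, 1254 and 1254 with shPLEKHO1. It was 3.24-fold higher (1.70 ± 0.05, and 1.14 with the mean of its probe sets). BCL2A1, which protects cells from apoptosis, was 3.16-fold higher on its brighter probe set (1.66 ± 0.07) and at 0.76 with the mean of both. TNFAIP2, a cytokine-induced gene, was 1.96-fold lower (-0.97 ± 0.05, and -0.72 with the mean of its probe sets), with all 5 of its probe sets down. These 3 genes had limma adjusted p values of at most 3.9e-06.

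RNA-binding proteins that act on chemokine messages, most by promoting their decay, rose in 3 of 11 cases and fell in 3. RC3H2 and RC3H1, a pair of related Roquin proteins that destabilise messages of inflammatory genes, went opposite ways. RC3H2 fell (-1.17 ± 0.05, and -0.53 with the mean of its probe sets) and RC3H1 rose (0.63 ± 0.05, and 0.39 with that mean). ZC3H12A, the ribonuclease regnase 1 that cuts such messages, rose (0.40 ± 0.05, limma adjusted p = 0.000513). Of 8 proteases that shed or trim chemokines, 2 rose and 2 fell. The collagenase MMP1 rose (0.88 ± 0.05) and MMP14 rose (0.45 ± 0.06), and all probe sets of both did. ADAM17, a protease that sheds CX3CL1, read 523, 482 and 501 with shNC and 324, 323 and 339.6 with shPLEKHO1, 1.53-fold lower (-0.61 ± 0.05, limma adjusted p = 5.53e-05, and -0.33 with the mean of its probe sets). ADAM10 did not pass (-0.04 ± 0.06).

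**Figure D5:**
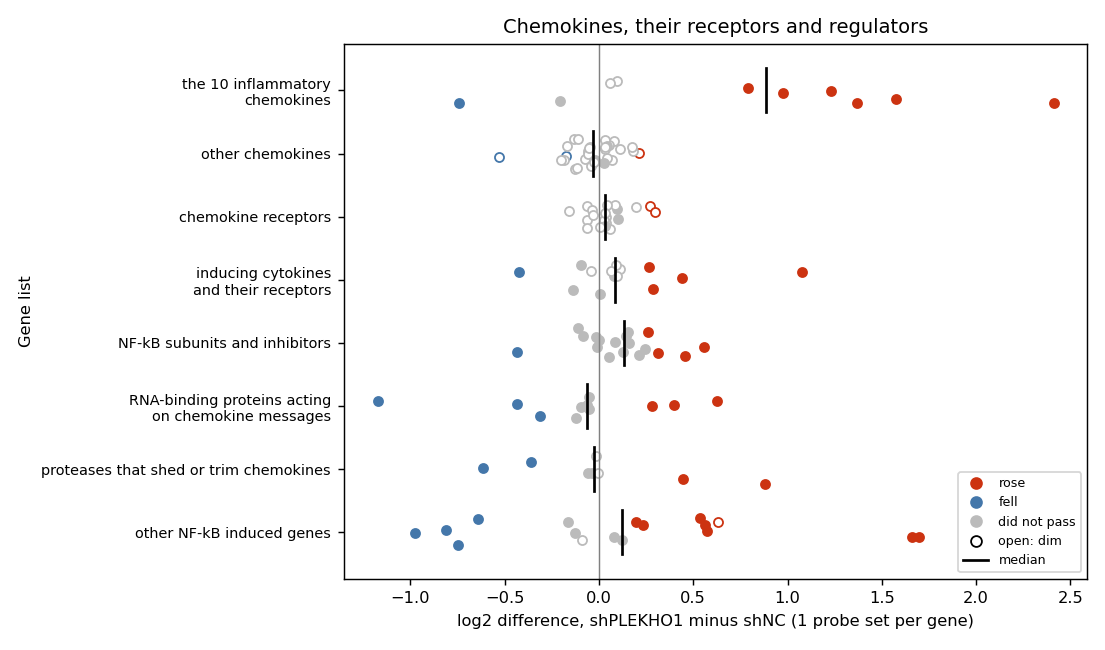
Log2 difference (shPLEKHO1 minus shNC) of each gene by its brightest probe set, for the 10 chemokines and 7 related lists, coloured by whether it rose, fell or did not pass in limma, open where dim, with a line at each median and points spread vertically for legibility. The median is 0.88 for the 10 chemokines, where 6 rose and 1 fell, and between -0.06 and 0.13 for the other lists.

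The genes with the profile most like CCL20 were SLN, GLIPR1, CD274, ARHGDIB and AKAP12, and those most like CXCL8 were CRISPLD2, GJA1, MYO5A, PUDP and ITPR1. Likeness was the Euclidean distance, over the 6 arrays, of log2 values centred on the shNC mean, among 10176 other genes above the median. The distance from CCL20 was 0.36 for SLN, the calcium pump inhibitor sarcolipin, and 1.02 for AKAP12, a kinase anchor. From CXCL8 it was 0.07 for CRISPLD2, a secreted CAP domain protein, and 0.13 for ITPR1, a calcium channel of internal stores. With 2 groups of 3 arrays this measure mostly reads the size of the group difference. CXCL8 was read here by 11718841_s_at (1.23), and the 5 genes named for it lay between 1.19 and 1.25. The other 2 CXCL8 probe sets, at 1.51, were not used for that list.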

How the data were processed

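The authors deposited 1 linear intensity for each probe set on each array. Affymetrix Expression Console made them, per the submitters' processing notes, and neither its algorithm nor a normalization of arrays to each other is given in the sources used here. Of 49395 probe sets, 102 were controls, and 44988 others had exactly 1 gene symbol and were tested. Another 2 probe sets name a listed chemokine together with a further gene and were not used. Symbols were updated by Entrez identifier with RefSeq (GRCh38.p14, names and gene order only), which matched 44961.

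Values were taken as log2(intensity + 1), quantile normalized over the whole table and compared with lmFit and eBayes (limma 3.58.1, R 4.3.3) with no covariate and with p-values adjusted by Benjamini-Hochberg over 44988 probe sets. The pseudocount of 1 understates the change of dim genes. The steps were tested on simulated data. The fit had 4 residual and 4.06 prior degrees of freedom. The number of arrays limits the precision. The 10 members and the related lists were chosen with earlier results of these data known. Besides the members, up to 3 genes with the smallest adjusted p were named per list. Same-numbered replicates did not deviate together (correlations of -0.15, -0.15 and -0.04), so no block was used. Alternatives changed the normalization, the pseudocount, the filter, the variance model, the array weights, the block, the arrays kept and the reading of genes.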

Additional observations from a re-analysis of the deposited data

How the results depend on the processing

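Across 14 alternatives, 11 chemokine probe sets rose in each, while the number that fell was 2 with a pseudocount of 16, 2 without the dimmest 30% of probe sets and 4 with a variance trend and robust fitting, the added ones being probe sets of CXCL5. Of 291 values of single chemokine probe sets under the alternatives, 283 kept direction and side of the threshold, 5 (CXCL5) passed where they had not, and 3 reversed sign. Those 3 were CXCL6 probe sets, which passed in neither case: with 1 array left out, 11730801_at ranged from -0.064 to 0.025, above 0 without shNC replicate 2 or shPLEKHO1 replicate 2, and 11742670_at from -0.019, without shNC replicate 2, to 0.12. With 1 array left out, the number of other chemokines called ranged from 1 to 4, and of receptors from 0 to 2 (0 without shNC replicate 2 or without shPLEKHO1 replicate 3). With the mean of a gene's probe sets 6 other chemokines were called. With the replicate number as a block 1 receptor was called, and the replicate block moved no other count by over 1.5 times. Of 299 values of the other genes named by rule, 280 kept their call and 19 lost it, all of CXCL10, PF4V1, CCRL2 or ACKR3. The number of genes called over the 5 lists linked to chemokine production ranged from 30 to 38 and of all probe sets from 12572 to 16195. The cause of these shifts was not tested. CCL5, CXCL6 and most receptors were dim.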
